A study of Mus musculus with 167 samples.

Results

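Levels of the microRNAs (miRNAs) mmu-miR-122-5p, mmu-miR-192-5p and mmu-miR-194-5p were followed over tissues, strains and irradiation. They were chosen by name, with earlier results of these data known, and they were 3 of the 1915 mature miRNAs counted in each of 5 tissues. Counts were obtained from whole lung, heart and brain homogenates and from white (WBC) and red (RBC) blood cell fractions of mice that had received whole thorax lung irradiation (WTLI), in which all but the chest is shielded, or a sham exposure. There were 35 libraries each of lung, heart, brain and RBC and 27 of WBC, from 35 mice, of which 27 gave all 5 tissues.

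The mice were of the strains C3Hf/Sed/Kam (C3H) and C57Bl/6 (C57), with no transgene or drug named in the labels for any group. C3H mice were all female, 10 to 12 weeks old at exposure, and were taken in month 4, with 7 irradiated and 8 sham mice for lung, heart, brain and RBC and 6 irradiated and 5 sham mice for WBC. C57 mice were taken in month 6, with 5 irradiated mice (4 male, 1 female) for every tissue and 15 sham mice (8 male, 7 female) for every tissue but WBC, which had 11 sham libraries (7 male, 4 female). C57 males were 8 to 10 weeks old and females 10 to 12 weeks. Strain and month after exposure cannot be told apart in this design, and neither can sex and age at exposure among C57 mice. Irradiated libraries came from mice that were alive at these late time points. Organs were perfused before collection and blood was drawn from the heart and separated by centrifugation.

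MiR-122 is the dominant miRNA of hepatocytes, where it keeps genes of other tissues silent and supports cholesterol metabolism, and its release into plasma is a widely used sign of liver injury. MiR-192 and miR-194 are encoded together, are enriched in the epithelium of liver, gut and kidney, and are driven there by hepatocyte nuclear factors. MiR-215 is encoded beside the other copy of miR-194 and shares the seed of miR-192. No liver library was among the samples, so the liver origin that these miRNAs are known for was not checked in these data, and counts in a homogenate do not tell where a mature miRNA was made.

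The mature sequences of miR-192-5p and miR-194-5p are shown with those of their closest relatives in the counts, because the relatives tell the 2 gene copies apart. Sequences are those of RefSeq (GRCm38.p6), written 5′ to 3′ with the seed, bases 2 to 8, in capitals.
miR-192-5p: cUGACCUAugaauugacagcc
miR-215-5p: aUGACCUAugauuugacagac
miR-194-5p: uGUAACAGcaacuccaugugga
miR-194-1-3p: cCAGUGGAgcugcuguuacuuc
miR-194-2-3p: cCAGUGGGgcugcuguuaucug

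MiR-192-5p and miR-215-5p, both 21 bases long, had the same base at 18 positions and differed by C1A, A12U and C20A, counted from 1 at the 5′ end of miR-192-5p. Their seed was shared by no other of the 1679 mature sequences in the table, and the seed of miR-194-5p by none. The 2 copies of miR-194 give 1 mature 5p sequence, so reads of miR-194-5p cannot be assigned to a copy, whereas the 3p arms differ at 4 of 22 positions (A8G, C19U, U20C and C22G, from miR-194-1-3p to miR-194-2-3p). Mir194-2 (chr19:6264643-6264728) and Mir192 (chr19:6264844-6264932) lie 115 bases apart on the plus strand of GRCm38.p6 and overlap no other gene in the annotation used. Mir194-1 (chr1:185313319-185313385) and Mir215 (chr1:185313581-185313692) lie 195 bases apart, within the antisense gene 2010103J01Rik and opposite Iars2, and Mir215 overlaps an exon of 2010103J01Rik.

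The other arms were read to see which arm and copy the counts came from. Over all libraries miR-122-5p had 47400 counts and its other arm, miR-122-3p, had 4, of which 3 were in 1 WBC library and 1 in 1 RBC library, both among the libraries with the most miR-122-5p. The 3p arm of the chromosome 19 copy, miR-194-2-3p, had 314 counts in 133 libraries. The 3p arm of the chromosome 1 copy, miR-194-1-3p, had 11 counts in 9 libraries, all of them heart. Heart was also where miR-215-5p was most abundant, with 2.1% of the counts of miR-192-5p and miR-215-5p together, against 0.056% in brain. The assignment of reads with several possible sources was not given in the sources used here, so values of miR-192-5p and miR-215-5p carry that uncertainty.

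Total counts ran from 1794995 to 7865102 per library, and a limit of 3 counts (what a count of 0 would allow) corresponded to 0.381 to 1.67 RPM, which here means the reads of a miRNA scaled to 1000000 miRNA reads of its library. Summed markers of heart muscle, brain and lung epithelium were each higher in all 35 libraries of their tissue than in every other library. The blood fractions were less distinct. Summed erythrocyte markers (4 miRNAs, none at 0) had group medians of 29858 to 45491 RPM in WBC and 40282 to 63580 RPM in RBC libraries, and summed leukocyte markers (5 miRNAs, none at 0) had group medians of 16931 to 27953 RPM in WBC and 24156 to 28119 RPM in RBC libraries. Each fraction thus held the markers of the other, and a difference between WBC and RBC libraries is one between fractions, not between pure cell types.

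The first question was how abundant each miRNA was in each tissue. By mean RPM over all libraries of a tissue, miR-192-5p was the most abundant of the 3 and ranked 38th to 84th of 1915 miRNAs in every tissue, miR-194-5p ranked 74th to 197th, and miR-122-5p ranked 237th to 301st in the organs but 78th in WBC and 67th in RBC. Those blood ranks come from means of 215 and 175 RPM that a few C3H libraries carry. The median of miR-122-5p over all libraries was 13.9 RPM in WBC and 4.24 RPM in RBC, against 20.8 RPM in brain, 6.16 RPM in heart and 2.44 RPM in lung. RPM values are shares of reads. How evenly different sequences were recovered in library preparation was not tested, so ranks and ratios between miRNAs are those of reads. In bulk libraries a lower level from fewer cells of a type and one from less RNA per cell cannot be told apart.

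**Figure D1:**
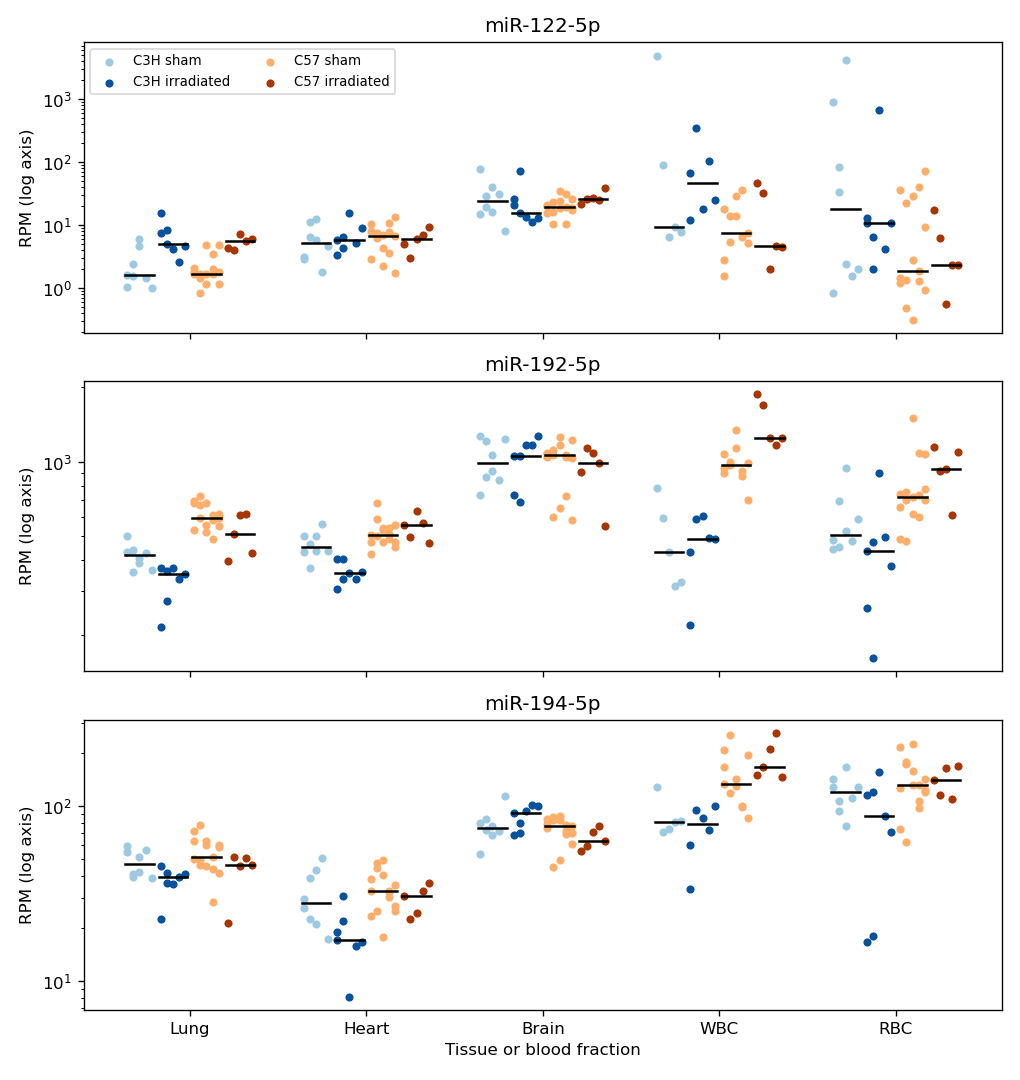
RPM (log axis) of miR-122-5p, miR-192-5p and miR-194-5p in each library by tissue, with 1 point per mouse and the group median as a line. MiR-122-5p runs from 0.317 to 4129 RPM in RBC and from 0.838 to 15.5 RPM in lung, while miR-192-5p and miR-194-5p keep to narrower ranges in every tissue.

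MiR-122-5p was low in the organs, with an order that was the same in both strains. In sham C3H mice it ranged from 1.02 to 6.01 RPM in lung (median 1.59), from 1.79 to 12.4 in heart (median 5.22) and from 8.16 to 78.9 in brain (median 24.0). In sham C57 mice it ranged from 0.838 to 4.79 RPM in lung (median 1.71), from 1.73 to 13.5 in heart (median 6.77) and from 10.3 to 34.3 in brain (median 19.5). Every sham lung library was below every sham brain library of its strain. Organs were compared in 1 joint fit of all libraries by limma, scaled by library total and adjusted over 542 miRNAs, where a miRNA passed the test at an adjusted p under 0.05. Brain and lung differed in 77.9% (C3H) and 85.2% (C57) of all miRNAs, brain and heart in 82.1% and 87.1%, and lung and heart in 51.5% and 60.7%. For miR-122-5p brain was higher than lung by 3.48 on the log2 scale in C3H (limma, SE 0.91, adjusted p = 0.000309) and 3.26 in C57 (limma, SE 0.67, adjusted p = 4.72e-06), and higher than heart by 2.22 (limma adjusted p = 0.0168) and 1.73 (limma adjusted p = 0.00997). Lung and heart differed in C57 by 1.53 (limma adjusted p = 0.0485) and did not pass the test in C3H (1.26, limma adjusted p = 0.261), both with heart the higher. The median log2 difference of all miRNAs was 1.97 and 1.96 between brain and heart and 1.19 and 1.26 between brain and lung, so only the gap to lung stood well above that of the miRNAs at large.

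In blood miR-122-5p varied more between mice than anywhere else. The 5 sham C3H WBC libraries had 4883, 90.5, 9.25, 7.82 and 6.48 RPM. The 8 sham C3H RBC libraries ranged from 0.827 to 4129 RPM around a median of 18.1, with 4 of them under 3 RPM. One mouse, sham C3H replicate 1, gave both the highest WBC library and an RBC library of 892 RPM, and sham C3H replicate 3, which had no WBC library, gave the highest RBC library. The highest libraries held 23172 and 10533 counts of it, so counting error was small beside these gaps.

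The ratio of the highest to the lowest library was 3141 in WBC and 13039 in RBC, against 8.88 to 18.5 in the organs. The SD of log2(RPM + 1) around the group means was 2.15 in WBC and 2.73 in RBC for miR-122-5p. It was 0.56 to 0.69 for miR-122-5p in the organs, 0.17 to 0.50 for miR-192-5p and 0.27 to 0.69 for miR-194-5p over all tissues. Of the 6 libraries above 100 RPM, all were blood fractions of 4 C3H mice, 2 sham and 2 irradiated. In those mice the organs held no such level: sham C3H replicate 1 had 1.06 RPM in lung, 3.08 in heart and 78.9 in brain, the last being the highest brain value of any mouse.

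MiR-192-5p was most abundant in brain and in C57 WBC. In sham C3H mice the median was 418 RPM for lung, 451 RPM for heart and 989 RPM for brain, and 433 RPM for the WBC and 504 RPM for the RBC fraction. In sham C57 mice the median was 595 RPM for lung, 503 RPM for heart and 1062 RPM for brain, and 969.9 RPM for the WBC and 719.7 RPM for the RBC fraction. Brain was higher than lung by 1.27 (limma adjusted p = 1.2e-10) in C3H and 0.66 (limma adjusted p = 1.49e-06) in C57, and higher than heart by 1.12 (limma adjusted p = 9.44e-09) and 0.90 (limma adjusted p = 2.99e-10). The medians of all miRNAs were 1.19 and 1.26 between brain and lung and 1.97 and 1.96 between brain and heart. These gaps of miR-192-5p thus lay near or below those of the miRNAs at large. Lung and heart did not pass the test in either strain (-0.15 and 0.23, limma adjusted p = 0.487 and 0.121).

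MiR-194-5p had its lowest level in heart and its highest in blood. For sham C3H and sham C57 mice its medians were 27.8 and 32.6 RPM for heart, 46.7 and 51.0 RPM for lung, 75.0 and 76.6 RPM for brain, 81.0 and 133.8 RPM for WBC, and 119.9 and 131 RPM for RBC. Lung was higher than heart by 0.68 (limma adjusted p = 0.0184) in C3H and 0.71 (limma adjusted p = 0.000402) in C57, and brain higher than lung by 0.69 (limma adjusted p = 0.00806) and 0.45 (limma adjusted p = 0.0155). The gaps of brain to lung lay below the medians of all miRNAs, 1.19 and 1.26, and those of lung to heart above theirs, 0.08 and 0.28. The neighbours WBC and RBC did not pass the test in either strain (limma adjusted p = 0.224 and 0.791), though after quantile normalisation RBC was the higher by 0.50 in C3H and 1.09 in C57 (limma adjusted p = 0.0391 and 5.09e-14).

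Although the genes of miR-192 and one copy of miR-194 are neighbours, the mature forms were not found in 1 ratio. The median ratio of miR-192-5p to miR-194-5p was highest for heart at 16.9, followed by brain at 13.2, lung at 9.56, WBC at 6.73 and RBC at 5.64. Single libraries ran from 7.30 to 21.5 in lung and from 10.8 to 43.6 in heart.

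The second question was whether the blood fractions held more of these miRNAs than the organs. Each fraction of sham mice was compared with the mean of lung, heart and brain in the same joint fit. Calls needed, beside an adjusted p under 0.05, a difference of 2.25-fold or more (1.17 in log2). Of 18 member contrasts (3 miRNAs, 6 contrasts) 5 were called, all higher in blood. Calls were the rule in these contrasts, at 82.3% (C3H) and 81% (C57) of miRNAs for WBC and 81% and 84.3% for RBC, but most were lower in blood: the median log2 difference of all miRNAs was -2.40 and -1.71 for WBC and -2.31 and -2.45 for RBC. Calls of higher abundance made up 15.9% and 23.6% for WBC and 14.8% and 14.9% for RBC.

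MiR-194-5p gave 3 of the 5 calls. It was higher in RBC than in the organs by 1.30 in C3H (limma, SE 0.19, adjusted p = 5.74e-10) and 1.40 in C57 (limma, SE 0.14, adjusted p = 2.62e-18), both called. In WBC it was higher by 1.51 in C57 (limma, SE 0.16, adjusted p = 1.94e-17), called, and by 0.85 in C3H (limma, SE 0.23, adjusted p = 0.00046), under the fold minimum. Its direction was the same under the other scalings, but the size was not: the RBC differences were 2.62 and 2.46 with TMM factors and 3.80 and 3.82 after quantile normalisation, and that of C3H WBC was 2.10 and 3.29, past the fold minimum. Within animals the RBC library was above the mean of the mouse's own organs in 8 of 8 C3H mice (mean difference 1.28 in log2(RPM + 1), exact sign-flip permutation test, two-sided, p = 0.00781, adjusted over 12 such tests 0.0234) and in 15 of 15 C57 mice (1.38, exact p = 6.1e-05, adjusted 0.000732). The WBC library was so in 11 of 11 C57 mice (1.48, exact p = 0.000977, adjusted 0.00586) and in 5 of 5 C3H mice (0.80, exact p = 0.0625, the smallest that 5 mice can give). Brain was the nearest organ. Against brain alone the RBC differences were 0.61 in C3H (8 of 8 mice, exact adjusted p = 0.0289) and 0.85 in C57 (14 of 15, exact adjusted p = 0.00146), and those of WBC were 0.95 in C57 (11 of 11) and 0.16 in C3H (3 of 5, exact p = 0.75).

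For miR-122-5p the called differences rested on the sham C3H libraries of 1 or 2 mice. In C3H it was higher than in the organs by 2.87 in WBC (limma, SE 0.80, adjusted p = 0.00054) and by 1.83 in RBC (limma, SE 0.70, adjusted p = 0.0119). Without sham WBC replicate 1 the first was 1.17 (limma adjusted p = 0.191). Without sham RBC replicate 1 the second was 1.07 (limma adjusted p = 0.152), without replicate 3 it was 0.78 (limma adjusted p = 0.283), and without both it was -0.26 (limma adjusted p = 0.734). In C57 neither fraction passed the test (0.51 in WBC and -0.50 in RBC, limma adjusted p = 0.415 and 0.374). Other scalings gave higher values, and after quantile normalisation and by edgeR the direction in C57 RBC turned. In C3H these were 4.11 and 3.14 with TMM factors, 5.53 and 4.72 after quantile normalisation and 8.32 and 7.86 by edgeR, and in C57 both were called, at 2.24 and 2.75 after quantile normalisation and 1.28 and 2.17 by edgeR. Within animals WBC was above the organs in 5 of 5 C3H and 6 of 11 C57 mice and RBC in 4 of 8 and 5 of 15, with exact p-values from 0.0625 to 0.624 by the sign-flip permutation test. The mean of the organs joined unlike values, since in C57 WBC was above lung by 1.80 (10 of 11 mice, exact p = 0.00195, adjusted 0.00586) and RBC against brain was -1.71 (lower in 12 of 15 mice, exact p = 0.00964, adjusted 0.0289).

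Where both fractions of 1 mouse were sequenced, miR-122-5p was higher in WBC than in RBC in 25 of 27 mice (10 of 11 C3H and 15 of 16 C57), each fraction against its own library total. Within sham mice RBC minus WBC was -1.26 in log2(RPM + 1) in C57 (lower in 10 of 11 mice, exact sign-flip permutation test, p = 0.00293, adjusted over 6 such tests 0.00879) and -1.89 in C3H (lower in 5 of 5 mice, exact p = 0.0625, the smallest that 5 mice can give), a test added after the values had been seen. With a pseudocount of 0.1 or 10 the C57 difference was -1.66 or -0.46. Between group means the joint fit, in which mice are not paired, did not pass the test (RBC minus WBC -1.04 in C3H and -1.01 in C57, limma adjusted p = 0.396 and 0.301), a contrast in which 14.6% and 44.1% of all miRNAs passed an adjusted p of 0.05. Without sham C3H WBC replicate 1, the highest WBC library, the C3H difference turned to 0.66 (limma adjusted p = 0.627), and the other omissions of 1 library left it between -2.08 and -0.38, none past the test. Without RBC replicates 1 and 3 together it was -3.12 (limma adjusted p = 0.0078), a direction set by the choice, since these are the RBC libraries of 892 and 4129 RPM and the WBC library of 4883 RPM was kept. The C57 difference turned to 0.51 after quantile normalisation and 0.88 by edgeR (limma adjusted p = 0.494, edgeR adjusted p = 0.343).

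The fractions of 1 mouse moved together. Deviations of log2(RPM + 1) from the group means in WBC and RBC were related for miR-122-5p over 27 mice with Pearson's r = 0.87 and Spearman's rho = 0.85 (permutation p = 1e-05 for each, the smallest the resamples can give; 45 relations were computed, and 9 had an adjusted p under 0.05 for r). The r was 0.83 without the 2 mice farthest from the median, 0.85 and 0.80 within the letters A and B of the sample titles, whose meaning was not stated, and 0.92 among the 11 C3H mice, all female. For miR-192-5p and miR-194-5p the same relation had r = 0.47 and 0.35 (permutation p = 0.0423 and 0.15) and did not pass the correction. Between blood and organs of 1 mouse no r passed the correction over 45. For miR-122-5p in RBC the r was 0.0078 with lung, 0.31 with brain and 0.45 with heart, of which the rho with heart did pass (0.50, permutation p = 0.00454, adjusted 0.0227). For miR-192-5p in lung and RBC the rho passed with the opposite sign (-0.48, permutation p = 0.00579, adjusted 0.0261), while r was -0.36 (permutation p = 0.0731), with -0.09 within letter A and -0.64 within letter B.

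**Figure D2:**
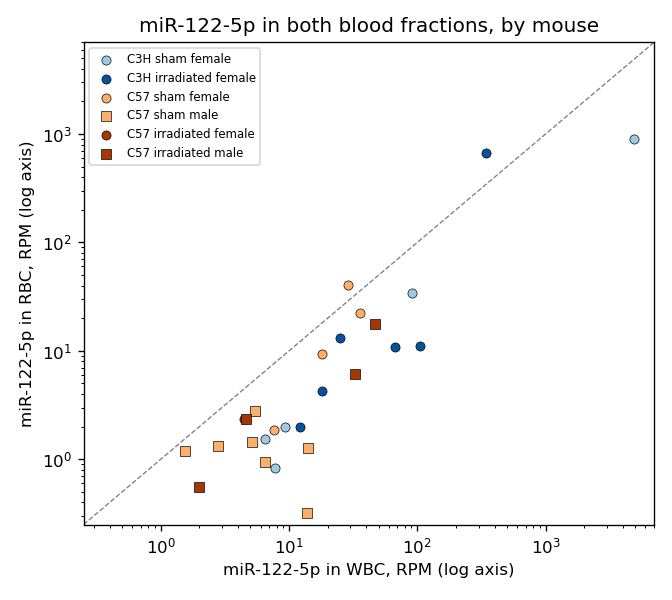
MiR-122-5p in the WBC library (x axis, RPM) and the RBC library (y axis, RPM) of the same mouse, both on log axes, for 27 mice, with colour for strain and irradiation and shape for sex. The dashed line marks equal RPM; 25 of 27 mice lie below it, and the fractions rise together with r = 0.87 for deviations from group means.

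MiR-192-5p was not called in any of the blood contrasts with the library total as the scale, and this depended on the scale. After quantile normalisation it was called higher than in the organs in all 4 (1.69 and 1.70 for WBC, 1.72 and 2.21 for RBC), and with TMM factors in RBC of both strains (1.28 and 1.22). With the library total it was higher in C57 WBC than in the organs by 0.55 (limma adjusted p = 6.06e-06), in 10 of 11 mice (exact sign-flip permutation test, p = 0.00195, adjusted over 12 tests 0.00781). Against brain alone the within-mouse difference was 0.04, with WBC higher in 5 of 11 mice (exact p = 0.774, adjusted 0.845), while WBC was above lung and above heart in 11 of 11. It did not pass the test in C3H WBC (-0.32, limma adjusted p = 0.0845) or in RBC of either strain (-0.05 and 0.16, limma adjusted p = 0.764 and 0.146). The RBC values join organs that lie on either side: within mice C57 RBC was above heart by 0.53 (14 of 15 mice, exact sign-flip permutation p = 0.000183, adjusted 0.0011), and C3H RBC against brain was -0.84 (lower in 7 of 8 mice, exact p = 0.0156, adjusted 0.0375). In C57 it was lower in RBC than in WBC by 0.39 (limma adjusted p = 0.0115), a direction that turned under 3 other scalings (0.34 to 0.50). Within mice, on RPM, RBC minus WBC was -0.48 (lower in 10 of 11 mice, exact sign-flip permutation p = 0.00293, adjusted over 6 tests 0.00879). Its differences from the organs on library totals stood above the medians of all miRNAs given before.

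The third question was what WTLI changed. In a fit per tissue with 4 groups of strain and irradiation, on quantile-normalised values and adjusted over the miRNAs tested in that tissue, limma called 0 of 30 member contrasts (3 miRNAs, 5 tissues, 2 strains), with 10 at an unadjusted p under 0.05. An adjusted p under 0.05 was found in 6, 5 of them in lung and 1 in heart. edgeR called 2 and DESeq2 called 3. The share of all miRNAs called was 9.71% in C3H and 6% in C57 lung, 6.73% and 0.962% in heart, and 0% in brain, WBC and RBC of both strains. Without the fold minimum these shares were 33.4% and 16.6% in lung and 16.7% and 3.53% in heart.

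MiR-122-5p was higher in irradiated lung in both strains. In C3H lung it ranged from 1.02 to 6.01 RPM (median 1.59) in 8 sham and from 2.59 to 15.5 RPM (median 5.08) in 7 irradiated mice. In C57 lung it ranged from 0.838 to 4.79 RPM (median 1.71) in 15 sham mice and was 4.27, 4.01, 7.28, 5.65 and 6.11 RPM in the 5 irradiated mice. All 12 irradiated libraries were above the sham median of their strain, 3 of 7 and 3 of 5 were above every sham library, and the groups overlapped in both strains.

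The log2 difference was 1.11 in C3H (limma, SE 0.37, adjusted p = 0.0205) and 1.13 in C57 (limma, SE 0.35, adjusted p = 0.0237), just under the fold minimum of 1.17. By exact permutation of log2(RPM + 1), two-sided, the differences were 1.17 (p = 0.00746, adjusted over 30 such tests 0.0448) and 1.10 (p = 0.000451, adjusted 0.0135). The size follows the pseudocount at these low levels: with 0.1 the C57 difference was 1.44, and with 10 it was 0.35, while that of C3H was then 0.41 and no longer past the test (adjusted exact p = 0.0522). Both strains were called with TMM factors, with library size alone, by edgeR and by DESeq2, at log2 differences of 1.18 to 1.52 for C3H and 1.20 to 1.39 for C57. In C3H the difference was 1.67 within letter A and 0.76 within letter B, and without irradiated replicate 1 it was 0.78 (limma adjusted p = 0.0768). In C57 it was 1.01 within letter A and 1.06 within letter B, and without irradiated replicate 3 or 5 the limma adjusted p was 0.0597 or 0.0643. The irradiated C57 mice were 4 males and 1 female against 8 males and 7 females in sham. With sex as a covariate the difference was 1.22 (limma adjusted p = 0.0216), and in males alone 1.27 (limma adjusted p = 0.113), which did not pass.

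These are small counts, 9 to 60 per irradiated and 3 to 20 per sham library over both strains. The strain by irradiation interaction was 0.02 (limma, SE 0.51, adjusted p = 0.999, 95% interval -1.01 to 1.06). Summed erythrocyte markers in lung had medians of 409 RPM (181 to 1134) in sham and 1063 RPM (289 to 2823) in irradiated C3H mice, and of 408 RPM (106 to 2121) and 191 RPM (81.0 to 471) in C57 mice. Summed leukocyte markers had medians of 3899 RPM (3397 to 4826) and 5081 RPM (2552 to 7019) in C3H lung, and of 3741 RPM (2393 to 9748) and 6309 RPM (5564 to 6829) in C57 lung. Summed heart muscle markers had medians of 5576 RPM (4759 to 7515) and 4087 RPM (2569 to 5226) in C3H lung. The part of these markers in the lung levels of the members was not tested.

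**Figure D3:**
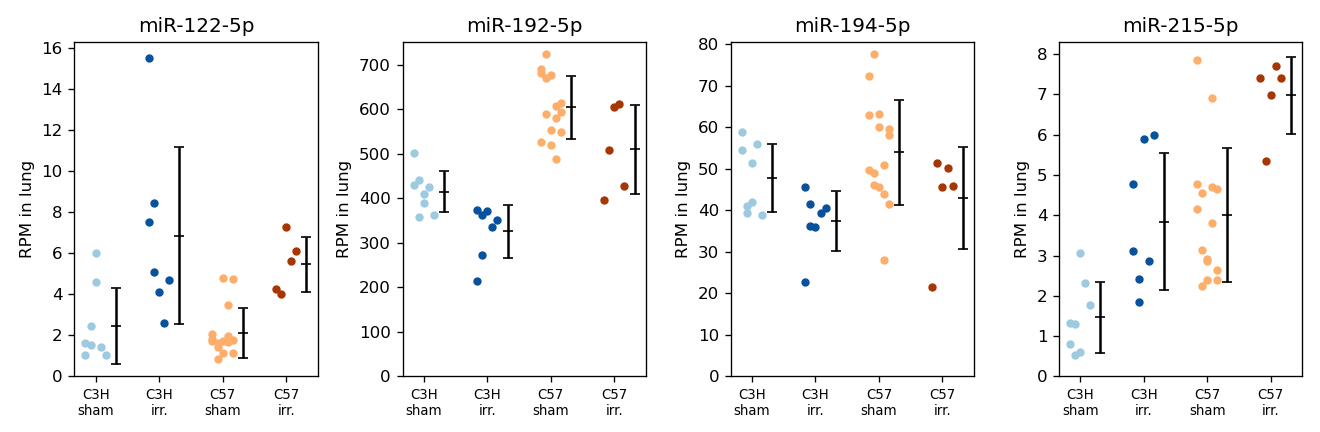
RPM in lung of miR-122-5p, miR-192-5p, miR-194-5p and miR-215-5p in each library, by strain and irradiation (irr., irradiated), with the mean and SD of each group as a bar. MiR-122-5p and miR-215-5p stand higher and miR-192-5p and miR-194-5p lower in irradiated than in sham groups, with overlap in each pair of groups.

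MiR-192-5p was lower in irradiated lung. In C3H lung it ranged from 359 to 502 RPM (median 418) in sham and from 215 to 373 RPM (median 351) in irradiated mice. In C57 lung it ranged from 488 to 725 RPM (median 595) in sham mice and was 396, 508, 607, 611 and 428 RPM in irradiated mice. All 7 irradiated C3H libraries were below the sham median and 4 were below every sham library, whereas 2 of 5 irradiated C57 libraries were above the sham median.

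The log2 difference was -0.67 in C3H (limma, SE 0.14, adjusted p = 0.000393) and -0.42 in C57 (limma, SE 0.14, adjusted p = 0.0327). By exact permutation test on RPM the differences were smaller, -0.36 in C3H (p = 0.00264, adjusted over 30 tests 0.0198) and -0.26 in C57 (p = 0.0221, adjusted 0.0868). The median of all miRNAs in irradiated lung was -0.08 in C3H and -0.05 in C57 on quantile-normalised values, and 0.27 and 0.12 with library size alone, under which C57 no longer passed (-0.26, limma adjusted p = 0.133). In C3H the difference on RPM was -0.66 within letter A and -0.11 within letter B. In C57 it was -0.43 within letter A and -0.14 within letter B, and without irradiated replicate 1, 2 or 5 the limma adjusted p was 0.12, 0.0602 or 0.127.

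MiR-194-5p followed miR-192-5p in C3H lung. It ranged from 39.0 to 58.8 RPM (median 46.7) in sham and from 22.8 to 45.7 RPM (median 39.4) in irradiated C3H mice, a log2 difference of -0.73 (limma, SE 0.18, adjusted p = 0.00191), which with library size alone was -0.36 (limma adjusted p = 0.146). In C57 lung it ranged from 28.2 to 77.7 RPM (median 51.0) in sham mice and was 21.6, 51.4, 45.6, 50.3 and 45.8 RPM in irradiated mice, with a difference of -0.48 (limma, SE 0.18, adjusted p = 0.0568). All 7 irradiated C3H libraries lay below the sham median, but on RPM the exact permutation test gave -0.35 (p = 0.0232, adjusted over 30 tests 0.0868), with -0.70 within letter A and -0.07 within letter B. The interaction did not pass the test for either miRNA (0.26 and 0.25, limma adjusted p = 0.595 and 0.688).

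The seed partner of miR-192-5p went the other way. MiR-215-5p ranged from 0.542 to 3.06 RPM (median 1.31) in sham and from 1.84 to 6.00 RPM (median 3.11) in irradiated C3H lung. In C57 lung it ranged from 2.24 to 7.87 RPM (median 3.80) in sham mice and from 5.34 to 7.70 RPM (median 7.42) in irradiated mice. The log2 difference was 0.92 in C3H (limma adjusted p = 0.0141) and 0.66 in C57 (limma adjusted p = 0.0326), under the fold minimum in both, from far fewer counts than those of miR-192-5p.

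Other miRNAs of digestive organs were read beside the members from a list of 8 (miR-148a-3p, both arms of miR-802, miR-375-3p, miR-203-3p, miR-216a-5p, miR-216b-5p and miR-217-5p). In lung 4 of the 8 were tested. In C3H 2 were higher (miR-148a-3p by 0.64 and the pancreas-enriched miR-216a-5p by 1.55, limma adjusted p = 0.0116 and 0.000214) and 1 was lower (the epithelial miR-203-3p by 0.62, limma adjusted p = 0.0146). In C57 2 were higher (miR-148a-3p by 0.79 and miR-216a-5p by 1.20, limma adjusted p = 0.00416 and 0.0185) and 2 were lower (miR-203-3p at -0.60 and the islet and endocrine miR-375-3p at -0.62, limma adjusted p = 0.0326 and 0.02). Of these, miR-216a-5p was past the fold minimum and so called, in both strains. The list had a median log2 difference of 0.15 in C3H and 0.09 in C57, against -0.08 and -0.05 for all miRNAs tested. In C3H heart 1 of the 3 listed miRNAs tested was called, miR-216a-5p, higher after WTLI by 2.73 (limma adjusted p = 3.14e-09). The 4 listed miRNAs tested in the joint fit were lower in blood than in the organs, with median log2 differences of -4.58 (C3H) and -4.26 (C57) for RBC and -4.12 and -3.06 for WBC.

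In heart 1 of 6 member contrasts passed an adjusted p of 0.05. MiR-194-5p ranged from 17.4 to 50.7 RPM (median 27.8) in sham and from 8.14 to 30.6 RPM (median 17.1) in irradiated C3H heart, a log2 difference of -0.62 (limma, SE 0.17, adjusted p = 0.0117). Of the 7 irradiated libraries, 6 were below the sham median and 4 were below every sham library. On RPM the exact permutation test gave -0.72 (p = 0.0204, adjusted over 30 tests 0.0868), which did not pass, with -1.18 within letter A and -0.27 within letter B. In C57 heart it was -0.25 (limma adjusted p = 0.521), and the interaction was 0.37 (limma adjusted p = 0.382).

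For miR-192-5p the heart result depended on the scale. In C3H heart it ranged from 371 to 560 RPM (median 451) in sham and from 307 to 405 RPM (median 354) in irradiated mice, with 5 of 7 irradiated libraries below every sham library. On RPM the exact permutation test gave -0.37 (p = 0.00202, adjusted over 30 tests 0.0198), whereas on quantile-normalised values the difference was -0.17 (limma adjusted p = 0.272). The median of all miRNAs was -0.17 with library size alone and -0.03 after quantile normalisation. MiR-122-5p in heart did not pass the test in either strain (0.50 and -0.15, limma adjusted p = 0.451 and 0.899). Summed leukocyte markers in C3H heart had medians of 1618 RPM in sham and 1133 in irradiated mice and summed erythrocyte markers 862 and 451. Summed lung epithelium markers (3 miRNAs, none at 0) ranged from 53.9 to 158.6 RPM (median 78.3) in sham and from 163.9 to 633 RPM (median 394) in irradiated C3H heart, without overlap. The same sum had a median of 1213 RPM in sham C3H brain, so it does not measure lung epithelium alone. A listed marker belongs to the miR-34 family, of which the paper reports members as changed in C3H heart. The part of these markers in the heart values was not tested.

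One irradiated C3H heart library, replicate 3, stood apart, with 50690 RPM of summed heart muscle markers against 152407 to 246805 RPM in the other 6, and it held the lowest miR-194-5p value. Without it the difference of miR-194-5p was -0.53 (limma adjusted p = 0.0414) and on RPM -0.55 (exact permutation p = 0.0463, adjusted over 30 tests 0.174). That of miR-192-5p on RPM was -0.36 (exact permutation p = 0.003, adjusted 0.0225), and that of miR-122-5p was 0.19 (limma adjusted p = 0.803).

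In brain and blood no member contrast passed limma's test after WTLI. In brain the 6 differences lay between -0.15 and 0.55 (limma adjusted p from 0.541 to 0.997). In WBC miR-192-5p ranged from 701 to 1344 RPM (median 969.9) in 11 sham C57 mice and was 1867, 1692, 1248, 1169.5 and 1244 RPM in the 5 irradiated C57 mice, all above the sham median and 2 above every sham library. The exact permutation test gave 0.54 (p = 0.00137, adjusted over 30 tests 0.0198) and limma 0.60 (limma, SE 0.20, adjusted p = 0.497 over 291 miRNAs). In C3H WBC the difference was -0.04 on RPM (exact permutation p = 0.916).

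MiR-122-5p in blood did not pass the test after WTLI, with wide errors. The differences in WBC were 0.36 in C3H and 0.16 in C57 (SE 1.16 and 1.32) and in RBC -0.50 and -0.48 (SE 1.37 and 1.73), all with limma adjusted p of 0.866 or more. DESeq2 called C3H RBC at -3.65 (DESeq2 adjusted p = 0.0191), a contrast whose sham group holds the libraries of 892 and 4129 RPM. The strain by irradiation interaction called 0 of 15 member contrasts by limma, edgeR and DESeq2 alike, with 1 at an unadjusted p under 0.05 (miR-194-5p in RBC, 0.70, limma adjusted p = 0.76). The share of all miRNAs called for the interaction was 0.286% in lung and 0% in the other tissues.

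The fourth question was whether sexes differed, which only C57 mice could answer. Females were compared with males among sham mice in a fit per tissue with 6 groups. Limma called 1 of 15 member contrasts, miR-122-5p in heart, and edgeR and DESeq2 called 1 each, miR-122-5p in RBC. By limma 10.1% of all miRNAs were called in heart, 6.12% in RBC, 7.62% in WBC, 4.87% in brain and 2.27% in lung, and an adjusted p under 0.05 was found for 34.9%, 14.4%, 11.1%, 21.3% and 6.05%. In heart miR-122-5p ranged from 4.39 to 13.5 RPM (median 7.72) in 7 females and from 1.73 to 10.5 RPM (median 4.85) in 8 males, higher in females by 1.22 (limma, SE 0.41, adjusted p = 0.0224). Of the 7 females, 6 were above the male median, and the groups overlapped. With library size alone the difference was 0.84 (limma adjusted p = 0.0759), and the median of all miRNAs moved from 0.06 to -0.31. Summed leukocyte markers in these heart libraries ranged from 986 to 1592 RPM in females and from 1672 to 2603 RPM in males, without overlap, and their part in the heart differences between sexes was not tested.

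MiR-122-5p in RBC separated the sexes most. It ranged from 1.85 to 71.4 RPM (median 28.5) in 7 females and from 0.317 to 2.80 RPM (median 1.24) in 8 males, with 6 of 7 females above every male. Males had 1 to 12 counts and females 6 to 249. The difference in log2(RPM + 1) was 3.36 (exact permutation p = 0.000311, adjusted over 15 such tests 0.00466), with 4.51 within letter A and 1.90 within letter B. Limma gave 3.85 (limma, SE 1.69, adjusted p = 0.116), not past the test, and edgeR and DESeq2 called it at 4.45 and 4.61 (edgeR adjusted p = 0.0258, DESeq2 adjusted p = 5e-05). These exact tests between sexes, and those between strains below, were added after the values had been seen.

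In WBC the 4 females had 28.8, 35.8, 7.59 and 18.2 RPM of miR-122-5p and the 7 males from 1.55 to 14.01 RPM (median 5.48). Of the 4 females, 3 were above every male, and the difference of 1.61 did not pass the correction (exact permutation p = 0.0273, adjusted over 15 tests 0.0682). In lung and brain the sexes did not pass the test (0.36 and 0.30, limma adjusted p = 0.638 and 0.572). Summed leukocyte markers in these WBC libraries ranged from 16287 to 19887 RPM in females and from 23819 to 33448 RPM in males, without overlap. In RBC females and males had medians of 38174 and 51327 RPM for summed erythrocyte and 21462 and 26487 RPM for summed leukocyte markers. Higher in RBC of females were the listed digestive-organ miRNAs summed (medians 2880 and 1830 RPM) and the heart muscle markers (9.67 and 6.13 RPM). Of 5 listed digestive-organ miRNAs tested there, 1 was called, miR-203-3p, higher in females by 1.34 (limma adjusted p = 0.0392). The part of these markers and miRNAs in the WBC and RBC differences between sexes, also those of miR-192-5p, was not tested.

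**Figure D4:**
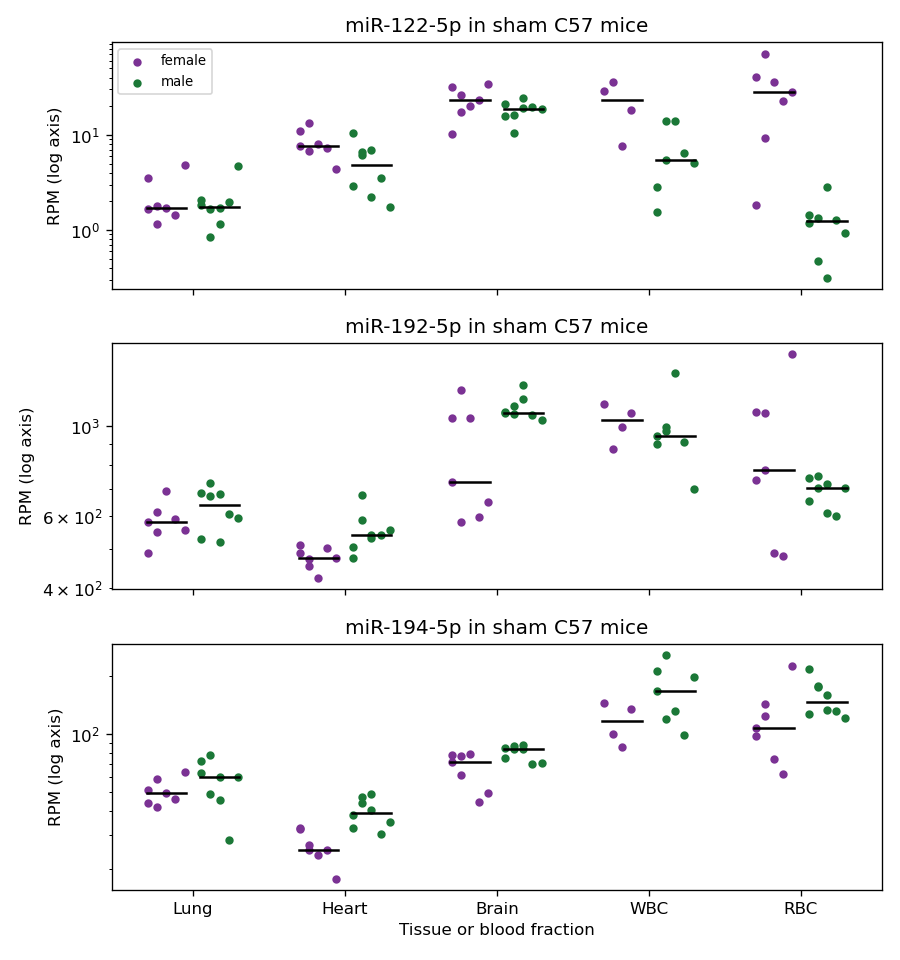
RPM (log axes) of the 3 miRNAs in sham C57 mice by sex in each tissue, with 1 point per library and the median as a line. MiR-122-5p in RBC stands at 1.85 to 71.4 RPM in females and 0.317 to 2.80 RPM in males, and miR-194-5p in heart at 17.8 to 32.7 RPM and 30.3 to 48.9 RPM.

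MiR-194-5p in heart was lower in females on RPM. It ranged from 17.8 to 32.7 RPM (median 25.3) in females and from 30.3 to 48.9 RPM (median 39.2) in males, with 5 of 7 females below every male. The difference of -0.58 passed the exact permutation test (p = 0.00124, adjusted over 15 tests 0.00932) and was of like size in both letters (-0.58 and -0.60). On quantile-normalised values it was -0.24 (limma adjusted p = 0.26). MiR-192-5p in heart differed likewise on RPM only (-0.21, exact permutation p = 0.00451, adjusted over 15 tests 0.0225; limma -0.17, adjusted p = 0.197). The leukocyte marker sums of these libraries, given for miR-122-5p, did not overlap between sexes either. Summed erythrocyte markers had medians of 485 RPM in females and 747 in males, and heart muscle markers 271713 and 260319. Summed digestive-organ miRNAs ranged from 12379 to 18167 RPM in females and from 18015 to 25081 RPM in males. The part of these sums was not tested.

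In brain both were lower in females by limma, miR-192-5p by 0.48 (limma adjusted p = 0.049) and miR-194-5p by 0.38 (limma adjusted p = 0.046), where the median of all miRNAs was -0.14. Each lost the pass in 5 of 7 alternatives, with differences as small as -0.25 for miR-192-5p (DESeq2) and -0.13 for miR-194-5p (edgeR), and the exact permutation tests on RPM did not pass the correction over 15 (-0.46 and -0.31, adjusted 0.0606 and 0.0682). Summed lung epithelium markers in these brain libraries ranged from 1047 to 1719 RPM (median 1142) in females and from 1701 to 2057 RPM (median 1901) in males, and their part was not tested. The male values of miR-192-5p lay between 1030 and 1258 RPM, while females ranged from 579 to 1224 RPM with 4 of 7 below every male. In WBC miR-192-5p was higher in females by 0.68 on quantile-normalised values (limma adjusted p = 0.0308), but 1017 ± 110 RPM (SD, n = 4) stood against 967 ± 192 RPM (SD, n = 7) in males, a difference of 0.09 on the log2(RPM + 1) scale (exact permutation p = 0.57).

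The fifth question was whether strains differed, within sham females. Limma called 0 of 15 member contrasts, with 6 at an unadjusted p under 0.05 and 4 at an adjusted p under 0.05, while the share of all miRNAs called was 3.04% for brain, 5.54% for lung, 7.19% for RBC, 11.4% for heart and 16.1% for WBC. An adjusted p under 0.05 was found for 15%, 14.4%, 18.3%, 31.6% and 22.3% of all miRNAs. edgeR called 2, miR-122-5p in WBC and RBC (lower in C57 by 5.90 and 4.18), contrasts whose C3H side holds the 3 highest libraries of miR-122-5p, and DESeq2 called 0.

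MiR-192-5p held 3 of the 4 strain contrasts that passed an adjusted p of 0.05. In lung it ranged from 359 to 502 RPM in sham C3H females, and 6 of 7 C57 females were above all of these. It was higher in C57 by 0.44 (limma, SE 0.14, adjusted p = 0.027) and on RPM by 0.48 (exact permutation p = 0.000466, adjusted over 15 tests 0.00699). It was higher in C57 RBC by 0.70 (limma, SE 0.13, adjusted p = 8.8e-05) and on RPM by 0.54 (exact permutation p = 0.0553). Summed erythrocyte markers in RBC had medians of 63580 RPM in sham C3H and 38174 RPM in sham C57 females. Summed leukocyte markers there had medians of 28119 and 21462 RPM, and the part of both sums was not tested. MiR-192-5p was also higher in C57 WBC by 0.62 (limma adjusted p = 0.0387). In WBC the 4 C57 females had 1129, 877, 989.6 and 1072 RPM and the 5 C3H females 783, 593, 433, 315 and 326 RPM, without overlap. The exact permutation test there gave 1.14 (p = 0.0159, adjusted over 15 tests 0.119), and without C3H replicate 5 or 6 limma no longer passed (limma adjusted p = 0.0975 and 0.118). MiR-122-5p in heart was higher in C57 females by 1.15 (limma adjusted p = 0.0303) and on RPM by 0.55 (exact permutation p = 0.132).

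The sixth question was how the members moved among themselves within a tissue. In brain, deviations of miR-192-5p and miR-194-5p from the group means had r = 0.75 and rho = 0.73 (n = 35, permutation p = 1e-05 for each), while miR-122-5p ran against both, with r = -0.67 and rho = -0.64 to miR-192-5p (permutation p = 1e-05 and 9e-05) and r = -0.60 and rho = -0.49 to miR-194-5p (permutation p = 0.0002 and 0.00395). Without the 2 mice farthest from the median the r were 0.81, -0.62 and -0.51. Within letters A and B they were 0.83 and 0.69, -0.60 and -0.75, and -0.48 and -0.69. With sex added to the groups they were 0.77, -0.69 and -0.60, over 34 mice. RPM are shares of 1 total, which can itself tie 2 miRNAs.

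**Figure D5:**
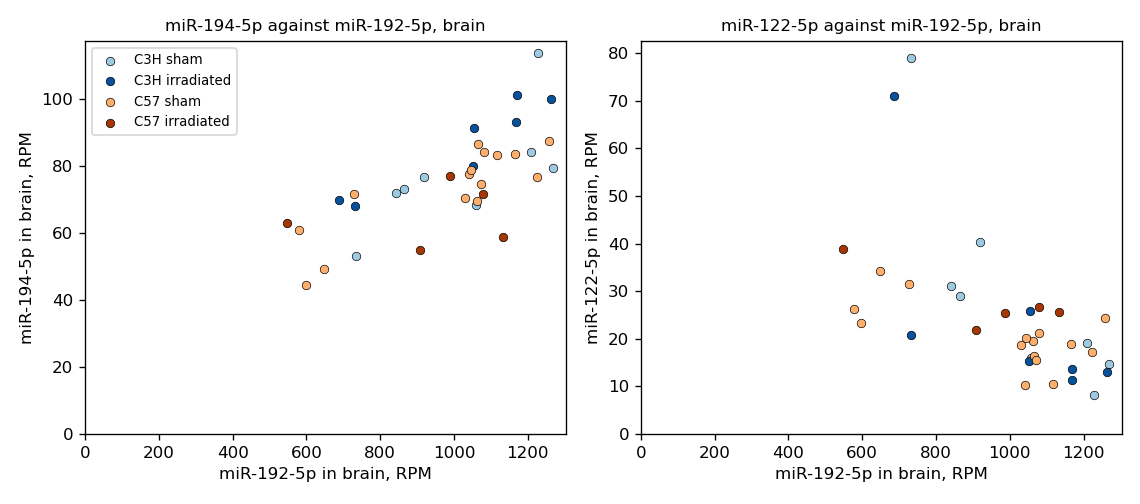
MiR-194-5p (left) and miR-122-5p (right) against miR-192-5p in brain, in RPM on linear axes that start at 0, with 1 point per mouse coloured by strain and irradiation. Mice with less miR-192-5p had less miR-194-5p and more miR-122-5p, with r = 0.75 and r = -0.67 for deviations from group means.

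In RBC miR-192-5p and miR-194-5p had r = 0.74 and rho = 0.60 (n = 35, permutation p = 3e-05 and 0.00039; r = 0.60 without the 2 farthest mice). In WBC it was miR-122-5p and miR-192-5p that moved together, with r = 0.70 and rho = 0.68 (n = 27, permutation p = 0.00041 and 0.00082; r = 0.60 without the 2 farthest; 0.74 and 0.57 within letters A and B). In RBC the same pair had r = 0.43 (permutation p = 0.00825) and r = 0.20 without the 2 farthest mice, so it rested on those. In lung miR-192-5p and miR-194-5p had r = 0.54 (permutation p = 0.00146; 0.35 without the 2 farthest mice) and in heart 0.54 (permutation p = 0.00148; 0.51). With the relation between the blood fractions, these were the 9 of 45 with an adjusted p under 0.05 for r. Taken from means by group and letter, 4 of the 9 no longer passed: miR-122-5p with miR-192-5p in WBC (r = 0.53, permutation p = 0.0386, adjusted 0.116) and in RBC (adjusted permutation p = 0.0542), and miR-192-5p with miR-194-5p in lung (adjusted permutation p = 0.116) and heart (adjusted permutation p = 0.0528). The relation of WBC to RBC for miR-192-5p passed instead (r = 0.62, adjusted permutation p = 0.0489).

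To place the members among other miRNAs, the mean log2(RPM + 1) of the 20 groups was compared with that of 379 miRNAs with enough counts, as a description over groups that share mice and library totals. The pattern most like that of miR-122-5p was miR-676-3p (r = 0.76), for miR-192-5p it was miR-185-5p (r = 0.89) and for miR-194-5p it was miR-186-5p (r = 0.92). MiR-194-5p came 8th for miR-192-5p (r = 0.71). For deviations of single libraries from their group means the closest were miR-30a-3p (r = 0.57), miR-101c (r = 0.72) and miR-186-5p (r = 0.78) in that order.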

How the data were processed

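The deposited files held raw counts of reads per mature miRNA, 1 table per tissue with 1915 miRNAs. The authors made these counts with a small RNA pipeline against mm10 after adapter trimming and left out runs poor in miRNA reads. The use of molecular identifiers and the treatment of reads with several matches were not given in the sources used here. Total counts per library were 1794995 to 7865102, and floors cover counting error only, while the interval of the interaction comes from limma and rests on the spread between mice.

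Libraries were grouped by tissue, strain and irradiation from the labels, and the numbers tie the tissues of 1 mouse together, since the titles carry 1 animal code. Replicates are separate mice. The members, lists and tests were chosen with earlier results of these data known. The text names the 3 members, their other arms and miR-215, marker sums, and the miRNAs with the most similar pattern. For the 8 digestive-organ miRNAs it gives values past the test in lung and heart after WTLI and medians between blood and organs. Of their contrasts between sexes and strains, some of which were also called, it gives only miR-203-3p in RBC between sexes.

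Counts were tested per tissue with limma 3.58.1 on voom values after quantile normalisation, keeping miRNAs by edgeR's filterByExpr (count minimum 10, total 15), with Benjamini-Hochberg adjustment over the miRNAs kept. Groups were strain by irradiation, with sex added for the comparisons of sexes and strains. Tissues were compared in a joint fit of 20 groups scaled by library total. Single values were tested on log2(RPM + 1), where a difference understates the change of low miRNAs, by exact permutation over mice, two-sided, and correlations with 100000 resamples within groups. Alternatives used edgeR 4.0.16, DESeq2 1.42.0, other scalings, filters and covariates, and omission of libraries. The exact tests of sex and strain and of RBC against WBC within mice, the omission of C3H sham RBC libraries (for strain also of WBC libraries) and of 1 C3H heart library from the exact tests and correlations with sex in the groups were added after seeing the data. The limma scripts were tested on simulated data with known changes (R 4.3.3, Python 3.11.15). Of 746 pairs of libraries within groups none agreed within sampling noise. Sequences were read from RefSeq (GRCm38.p6) tables, where the mm10 build names the same assembly.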

Additional observations from a re-analysis of the deposited data

Results flagged for a closer look

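A single library far from the rest of its group, by the gap to its nearest neighbour over the range of the group, was found for 10 values in 45 groups of 4 to 10 libraries. The gaps were taken on RPM, not on the log scale used for the tests. The rule was set for a rate of about 1 in 20 groups by chance. That rate need not hold for values as skewed as those in blood, so whether the 10 values exceed chance cannot be told from it.

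For miR-122-5p 7 libraries stood far above the others of their group. In blood these were sham C3H WBC replicate 1 (4883 RPM), sham C3H RBC replicate 3 (4129 RPM), and the WBC (342 RPM) and RBC (667 RPM) libraries of the same irradiated C3H mouse, replicate 3. In brain they were sham C3H replicate 1 (78.9 RPM), the mouse with the highest WBC library, irradiated C3H replicate 2 (71.0 RPM) and irradiated C57 replicate 5 (38.7 RPM). In no lung or heart group of 10 or fewer libraries did a value of miR-122-5p stand apart in this way.

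For miR-194-5p the lung libraries of irradiated C3H replicate 1 (22.8 RPM) and irradiated C57 replicate 1 (21.6 RPM) were far below the others of their groups. In WBC sham C3H replicate 1 was far above (127.7 RPM). MiR-192-5p gave no such library.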

How the results depend on the processing

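After WTLI, where limma called 0 of 30 member contrasts, 6 passed without the fold minimum, 2 were called with TMM factors, 2 with library size alone, 2 by edgeR, 3 by DESeq2 and 1 with sex as a covariate, and 0 to 1 when 1 library was left out. Those called with TMM factors, with library size alone and by edgeR were miR-122-5p in lung of both strains. With at least 10 counts in every library it was not tested. Between strains (0 of 15) 4 passed without the fold minimum, 2 were called by edgeR and 1 with both sexes of C57 in the fit. Between sexes (1 of 15) 4 passed without the fold minimum, and 0 were called with library size alone or with at least 10 counts in every library.

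Between blood and organs (5 of 18) 8 passed without the fold minimum, and 12 were called after quantile normalisation, 8 with TMM factors, 10 by edgeR and 3 with at least 10 counts in every library, where miR-122-5p was not tested. The direction of miR-192-5p in C57, RBC minus WBC, turned to 0.50 after quantile normalisation, 0.34 with TMM factors and 0.40 by edgeR, that of miR-122-5p in C3H RBC against the organs to -0.26 without replicates 1 and 3, and that of miR-122-5p in C3H, RBC minus WBC, which had not passed, to 0.66 without sham WBC replicate 1. After quantile normalisation and by edgeR the direction of miR-122-5p in C57 also turned, in RBC against the organs and in RBC minus WBC, neither of which had passed. Calls gained on other scalings were of all 3 members. With the mouse as a replicate block (consensus correlation 0.0239) the calls were 5, and the block changed no call; miR-122-5p in C3H WBC was then 2.91. Counts of calls for the interaction, the sign-flip tests and the correlations stayed within 1.5 times under the alternatives run, but not for the same relations: with means by group and letter 4 of the 9 correlations no longer passed, and against brain alone the sign-flip call of miR-192-5p in C57 WBC was lost (adjusted exact p = 0.845). Low counts limit miR-122-5p most, since 3 counts are worth up to 1.67 RPM.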
